A study of Mus musculus and Rattus norvegicus with 8 samples.

Results

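The lungs of 2 ventilated rats and of 2 control rats were compared across all genes of a rat oligonucleotide array. These 4 arrays were chosen by their sample titles from the 8 arrays of the study, and the other 4, from mouse lung, were not used here. All 4 rats were male Wistar animals 8 weeks old with a tracheal cannula. The ventilated rats received a tidal volume of 12 ml/kg of room air for 5 hours from a ventilator, and the control rats drew their own breath through the same kind of cannula. Anaesthesia, the length of cannulation in the controls and the part of the lung sampled are unstated in the labels. RNA came from frozen pieces of about 50 mg, so each array averages over all cells of a piece of lung, and fewer cells of a type and less RNA per cell cannot be told apart.

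A ventilator stretches the alveolar wall with each breath under positive pressure. Stretch of alveolar epithelial cells, endothelial cells and macrophages is known to release cytokines and chemokines such as interleukin-6 and CCL2, to act on the surfactant system made by alveolar type 2 cells, and to change the turnover of the collagen, elastin and fibronectin scaffold of the wall. Nitric oxide, natriuretic peptides and the angiotensin and endothelin systems set the tone and the leak of the small vessels that share this wall.

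The median deposited signal was 42.6 and 43.2 on the ventilated arrays, against 46.2 and 45.3 on the control arrays, in arbitrary units of brightness. After normalisation, log2 signals correlated at 0.977 between the ventilated arrays and at 0.967 between the control arrays, across the genes tested, and at 0.936 to 0.945 between arrays of different groups. Surfactant, club cell and alveolar type 1 transcripts were bright on all 4 arrays, as lung tissue gives them: the surfactant protein B gene Sftpb had signals of 3641 and 3766 in ventilated lungs, against 4079.9 and 4287 in control lungs, and Ager, a receptor gene of alveolar type 1 cells, 2113 and 2337, against 2508 and 2396. All signals below are normalised, and a log2 change is ventilated over control. Signals under 11.5, the 25th percentile, were raised to it before log2 was taken, so the change of dim genes is understated. The labels say only that the rats of a group are separate samples, and p-values measure the spread between these samples.

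Of 3876 genes tested, 224 passed a Benjamini-Hochberg adjusted p under 0.05 in limma (5.78% of the genes tested). Of these, 96 rose in ventilated lungs (2.48%) and 128 fell (3.30%). With the arrays scaled to a common median instead, 155 rose and 102 fell. The median log2 change was 1.32 among the genes that rose, -1.03 among those that fell and -0.01 over all genes. Both ventilated arrays lay above both controls for 1075 genes (27.7%) and below both for 1051 (27.1%), so arrays of the groups stood apart for many more genes than passed the test. With 2 arrays a group, unchanged genes also stand apart often through random order alone, so separation by itself is weak evidence of change. With 1 array of either group left out, no gene passed in limma. The counts at an unadjusted p under 0.05 were then 569 and 543 without ventilated arrays 1 and 2, and 864 and 832 without control arrays 1 and 2. All 224 genes kept their direction in each of these 4 fits. They had been called for their difference on these same 4 arrays, so a kept direction is no independent check. The number of arrays limits the precision of every value.

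**Figure D1:**
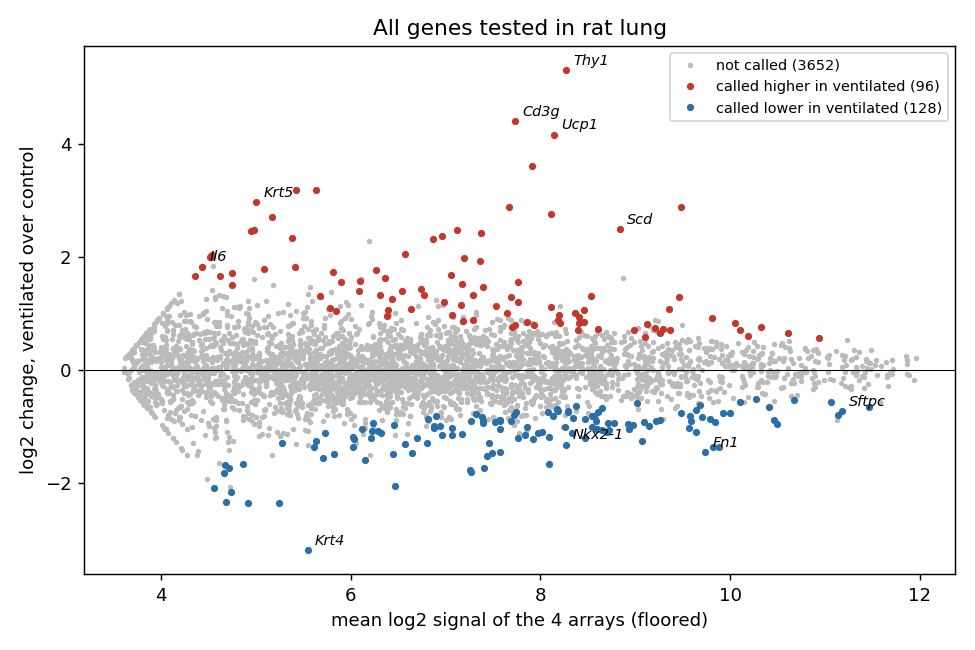
Each point is 1 of 3876 genes, with the mean log2 signal of the 4 arrays on the x axis and the log2 change of ventilated over control lungs on the y axis; red points were called higher, blue points lower and grey points neither. The largest rises (Thy1, Cd3g, Ucp1) reach a log2 change of 5.32, and the largest fall (Krt4) is -3.19.

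Genes of T cells and Ucp1 of brown fat had the largest rises. Thy1, a surface glycoprotein gene that in the rat marks thymocytes and also some fibroblasts, had signals of 1715 and 2219 in ventilated lungs, against 59.9 and 40.05 in control lungs. Cd3g, a chain of the T cell receptor complex, had 961 and 997 in ventilated lungs, against 48.5 and 43.5 in control lungs. Both genes were far brighter on each ventilated array than on either control. The log2 changes were 5.32 ± 0.23 for Thy1 and 4.41 ± 0.15 for Cd3g (SE; limma, adjusted p = 0.000385 and 0.000243). Each has a second probe set, which was also called higher, at 3.71 for Thy1 and 3.24 for Cd3g on the log2 scale. Cd3d, Cd8a, Cd8b, Cd247, Cd2 and Cd5, further receptor and coreceptor genes of T cells, rose by between 2.34 (Cd5) and 3.62 (Cd3d), and the signalling genes Lck and Lat by 2.89 and 2.77. In all, 10 of the 15 tested T cell genes rose and none fell, with a list median of 2.48. That median was 2.47 and 2.48 on the ventilated arrays taken singly, relative to the control mean. The remaining 5 did not pass: the helper coreceptor gene Cd4 had signals of 84.4 and 82.6 in ventilated lungs, against 58.5 and 77.5 in control lungs, and Ptprc, the common leukocyte antigen gene CD45, 136 and 164, against 144 and 129. These differed by much less than the CD3 and CD8 chains. Rag1, which encodes a recombinase of immature lymphocytes, stayed near or under the floor of the fit on all arrays, with 2.62 and 10.03 in ventilated lungs and 1.95 and 3.36 in control lungs.

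**Figure D2:**
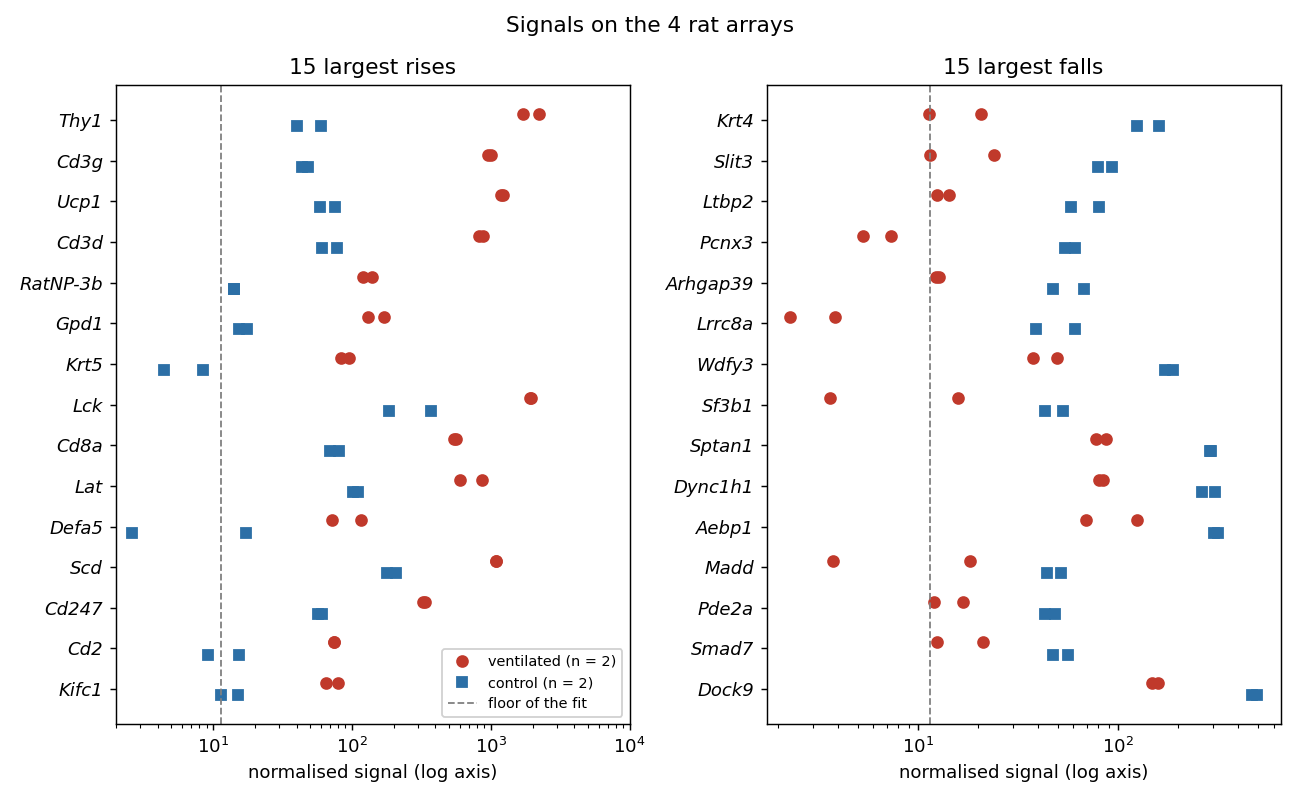
Normalised signals (log axis) on the 4 arrays for the 15 genes with the largest rises and the 15 with the largest falls, red circles for ventilated and blue squares for control lungs; the dashed line is the floor of 11.5 to which lower signals were raised before log2 was taken. The genes were chosen among those whose ventilated arrays both lie on 1 side of both controls, so that separation comes from the choice.

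Ucp1, the uncoupling protein that makes heat in brown fat, had signals of 1216 and 1182 in ventilated lungs, against 75.2 and 58.9 in control lungs. Its log2 change was 4.17 ± 0.17 (SE; adjusted p = 0.000322), and both of its probe sets gave over 4. Other fat genes rose with it: Gpd1, a glycerol phosphate dehydrogenase, by 3.18, the adipocyte fatty acid binding protein gene Fabp4 by 2.43, the lipid droplet gene Cidea by 2.32, and the adipsin gene Cfd by 1.68. Of 18 tested genes of brown and white fat, 6 rose and 1 fell (38.9% called, against 5.78% of all genes), with a median of 0.44. The gene that fell was Lipe, the hormone-sensitive lipase, at -0.59 ± 0.12 (SE). Its call was lost on the values as deposited, with a common median and with cyclic loess (adjusted p = 0.0663, 0.0881 and 0.0613). Lep, the leptin gene, had signals of 333 and 505 in ventilated lungs, against 735 and 595 in control lungs, lower on both ventilated arrays but short of the test. The 6 fat genes that rose were brighter on both ventilated arrays, while Lipe and Lep were brighter in control lungs on their brightest probe sets. The 3 probe sets of Lep ran from -0.69 to 0.13 on the log2 scale, none called. The signals of the fat list summed to 5139 and 5526 in ventilated lungs, against 3718 and 3431 in control lungs, and those of the T cell list to 7712 and 8529.7, against 1095 and 963. The part of neighbouring tissue in these rises was not tested.

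Scd, a stearoyl-CoA desaturase of lipid synthesis, had signals of 1089.7 and 1087 in ventilated lungs, against 178 and 209 in control lungs, a rise of 2.49 ± 0.14 in log2 units (SE; adjusted p = 0.000773). The remaining genes of fatty acid and cholesterol synthesis did not pass: of 34 tested, Scd was the 1 that rose, and the median was 0.21. Krt5, the keratin of basal epithelial cells, was at 96.1 and 83.97 in ventilated lungs, against 4.47 and 8.45 in control lungs, where both arrays were under the floor, so it was at least 7.83-fold higher. Krt4, a keratin of the upper layers of wet stratified epithelium, showed the opposite: 20.8 and 11.4 in ventilated lungs, against 160.2 and 125 in control lungs, the largest fall of all genes, with a log2 change of -3.19 ± 0.34 (SE; adjusted p = 0.00935). In the list of oesophageal, stratified epithelial and thyroid genes these were the 2 calls among 10 tested. The granule peptide genes RatNP-3b and Defa5, both of the defensin family, rose by 3.19 ± 0.23 and 2.70 ± 0.35 (SE). Defensin genes have near-identical copies, so these signals may be shared between family members. Kifc1, a motor of the mitotic spindle, rose by 2.46.

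Inflammatory messengers changed in a few members. Il6, the interleukin-6 gene, had signals of 41.5 and 40.3 in ventilated lungs, against 10.4 and 1.80 in control lungs. Both control arrays were under the floor of 11.5, so Il6 was at least 3.56-fold higher in ventilated lungs (log2 change 1.83 ± 0.28 against the floor, SE; adjusted p = 0.0208). With a floor of 1 the adjusted p was 0.0832, and with the probe sets of Il6 averaged it was 0.0654. Ccl2, the monocyte chemokine gene, had 202 and 182 in ventilated lungs, against 78.4 and 88.3 in control lungs. Its 2 probe sets were both called higher, at 1.20 and 1.43 on the log2 scale. Among 33 tested cytokine and receptor genes Il6 was the single call, and the list median was -0.15. Il1b, the interleukin-1 beta gene, was at 508 and 387 in ventilated lungs, against 277 and 309 in control lungs, and its decoy receptor Il1r2 at 412 and 377, against 205 and 277. Both were higher on each ventilated array than on either control but did not pass (adjusted p = 0.102 and 0.0752), while 1 of the 3 probe sets of Il1b was called higher at 0.74. The signal transducer gene Stat3 and the shared receptor gene Il6st had log2 changes of -0.83 ± 0.26 and -0.80 ± 0.24 (SE), and Socs3, a feedback inhibitor of this pathway, had signals that overlapped between the groups, 50.7 and 92.5 in ventilated lungs, against 131 and 76.6 in control lungs.

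Of 19 chemokine and chemokine receptor genes, Ccl2 rose, Ccl5 fell and 17 did not pass, with a median of 0.24. Ccl5, a chemokine of T cells, NK cells and stimulated epithelium, had signals of 436 and 365 in ventilated lungs, against 822 and 773 in control lungs, a log2 change of -0.999 ± 0.14 (SE; adjusted p = 0.016). It fell although the T cell receptor genes rose on the same arrays. The granzyme and receptor genes of NK and cytotoxic cells did not follow the T cell genes either: Gzmb had 51.98 and 64.97 in ventilated lungs, against 72.9 and 70.6 in control lungs, and Klrb1a 71.96 and 74.1, against 70.2 and 77.95. Ccl20 and Ccl3, which attract lymphocytes and myeloid cells, were higher on both ventilated arrays without passing, at 0.99 ± 0.25 and 0.98 ± 0.30 (SE). Cxcl3, a neutrophil chemokine, was bright in both groups, with 894 and 886 in ventilated lungs, against 805 and 800.5 in control lungs. The calgranulin gene S100a8 of neutrophils had 2505 and 2276, against 1524 and 1685, and rose by 0.58 ± 0.11 (SE; adjusted p = 0.0366). Its partner S100a9 had a log2 change of 0.22 ± 0.10 (SE) and did not pass. Of 11 tested neutrophil genes, S100a8 and Defa5 rose and none fell, but S100a8 was not called on the values as deposited (adjusted p = 0.0543), nor Defa5 with a floor of 1 (adjusted p = 0.0581). Of 15 macrophage and monocyte genes none passed in limma and 4 had an unadjusted p under 0.05, with a median of -0.01.

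Antiviral and antigen processing genes held 4 more rises. Rsad2, the interferon-stimulated gene for viperin, had signals of 264 and 299 in ventilated lungs, against 103 and 99.3 in control lungs, a rise of 1.47 ± 0.16 (SE; adjusted p = 0.01). It was the single call among 13 interferon-stimulated genes (7.69%, against 5.78% of all genes), whose median was 0.18. Irf7, a regulator of interferon genes, was at 435 and 441, against 262 and 151, with no overlap of the groups and an adjusted p of 0.0607. Psmb8 and Psmb9, catalytic subunits of the immunoproteasome, had 666 and 826 and 425 and 432 in ventilated lungs, against 387 and 454 and 245 and 283 in control lungs. They rose by 0.82 ± 0.16 and 0.70 ± 0.14 (SE), and Tap2, a subunit of the peptide transporter, rose by 0.85 ± 0.16 (SE). Of the 12 genes of class I loading these 3 passed, with a median of 0.30. B2m, the class I light chain, had a log2 change of -0.013 ± 0.089. The 12 class II genes held no call in limma and 2 at an unadjusted p under 0.05, with a median of -0.06. Probe sets of this family conflict: RT1-Bb has 5, from -1.04 to 3.47 on the log2 scale, of which 2 were called higher and 1 lower, and Cd74, the invariant chain gene, has 4, all negative, of which 1 was called lower at -0.63. Class II genes have near copies, so signals of single members are uncertain.

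Early response genes did not rise as a list. Of 36 tested, Crem rose and Zfp36, Zfp36l1 and Klf4 fell (11.1% called, against 5.78% of all genes), and the median was -0.20. Crem, a cyclic AMP responsive modulator, had signals of 284 and 258 in ventilated lungs, against 161 and 157 in control lungs. Its 3 probe sets had log2 changes from 0.77 to 2.05. Zfp36, which encodes tristetraprolin and shortens the life of cytokine messages, had 282 and 322 in ventilated lungs, against 512 and 494 in control lungs. Its relative Zfp36l1 had 624 and 504, against 1054 and 1043. Both were lower on each ventilated array than on either control, with log2 changes of -0.74 ± 0.14 and -0.90 ± 0.14 (SE; adjusted p = 0.0366 and 0.0222). With a common median Zfp36 was not called (adjusted p = 0.051). Klf4, a transcription factor of quiescent endothelium and epithelium, fell by 0.63 on the log2 scale, a call lost on the values as deposited and with a common median (adjusted p = 0.0575 and 0.0746). Egr1 and Atf3, which are known to respond rapidly to stretch and stress, had 240.1 and 276 and 171 and 157 in ventilated lungs, against 181 and 186 and 94.6 and 125 in control lungs. Both stood above the controls without passing (adjusted p = 0.119 and 0.139). The 4 probe sets of Egr1 ran from -0.25 to 0.49 on the log2 scale, none called, so its sign depends on the probe set. Jun and Cebpd had negative log2 changes of -0.30 ± 0.14 and -0.37 ± 0.16 (SE), and neither passed.

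Other genes often followed in ventilated lungs gave the following. Hspa1a, the inducible heat shock protein, had signals of 691 and 649 in ventilated lungs, against 1248 and 1272 in control lungs, and fell by 0.91 on the log2 scale (adjusted p = 0.0117). Hmox1, the inducible heme oxygenase, did not pass at -0.36 ± 0.16 (SE). Sod2, the mitochondrial superoxide dismutase that responds to cytokines, had 303 and 257 in ventilated lungs, against 159 and 165 in control lungs, and rose by 0.79 ± 0.16 (SE; adjusted p = 0.045). It was the single call among 35 antioxidant and metallothionein genes. The tissue factor gene F3 (log2 change 0.17 ± 0.13), the adhesion gene Icam1 (-0.24 ± 0.11) and the matrix inhibitor gene Timp1 (0.25 ± 0.11) did not pass. Neither did Nos2, Areg and Il1rn, at 1.30 ± 0.55, 0.89 ± 0.32 and 1.22 ± 0.42 (SE), although both ventilated arrays were above both controls for each of them. Over the 34 tested genes of this kind, 2 rose (Il6 and Ccl2) and 4 fell (Scnn1a, Hspa1a, Sftpc and Klf4), with a median of -0.06.

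Genes of the mitochondrial respiratory chain were higher as a group. Of 44 tested, 12 rose, none fell and 36 had a positive log2 change, with a median of 0.45 against -0.01 over all genes. Both ventilated arrays lay above both controls for 32 of the 44, against 27.7% of all genes. Relative to the control mean, the list median was 0.55 on ventilated array 1 and 0.44 on ventilated array 2, against -0.03 and 0.03 on the control arrays. With any 1 array left out the median stayed between 0.40 and 0.55, although no member was then called. Ndufb9, a subunit of complex I, had signals of 1374 and 1105 in ventilated lungs, against 637 and 666 in control lungs, a rise of 0.92 ± 0.14 (SE; adjusted p = 0.0208). Ndufs6, Ndufb5 and Ndufb6, of the same complex, rose by 0.72 ± 0.12, 0.83 ± 0.15 and 0.97 ± 0.17 (SE). Of complex IV, Cox5b had 1511 and 1315 in ventilated lungs, against 849 and 875 in control lungs, and Cox7b had 561 and 458, against 228 and 262. These subunits rose by 0.71 ± 0.12 and 1.05 ± 0.16 (SE). Cox8b, a form of subunit VIII found in heart, skeletal muscle and brown fat, had the largest rise, at 299 and 282 in ventilated lungs, against 69.2 and 78.5 in control lungs. Its log2 change was 1.98 ± 0.17 (SE; adjusted p = 0.00447). Cox6c had 225 and 204, against 81.7 and 113, and was called at 1.15 ± 0.21 (SE), but its other probe set gave -1.16 and was not called, so the 2 measures disagree. Outside the rule for naming genes, and given to complete the count, Ndufa9, Ndufa4 and the ATP synthase genes Atp5f1c and Atp5po rose by between 0.71 (Ndufa4) and 0.89 (Ndufa9).

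**Figure D3:**
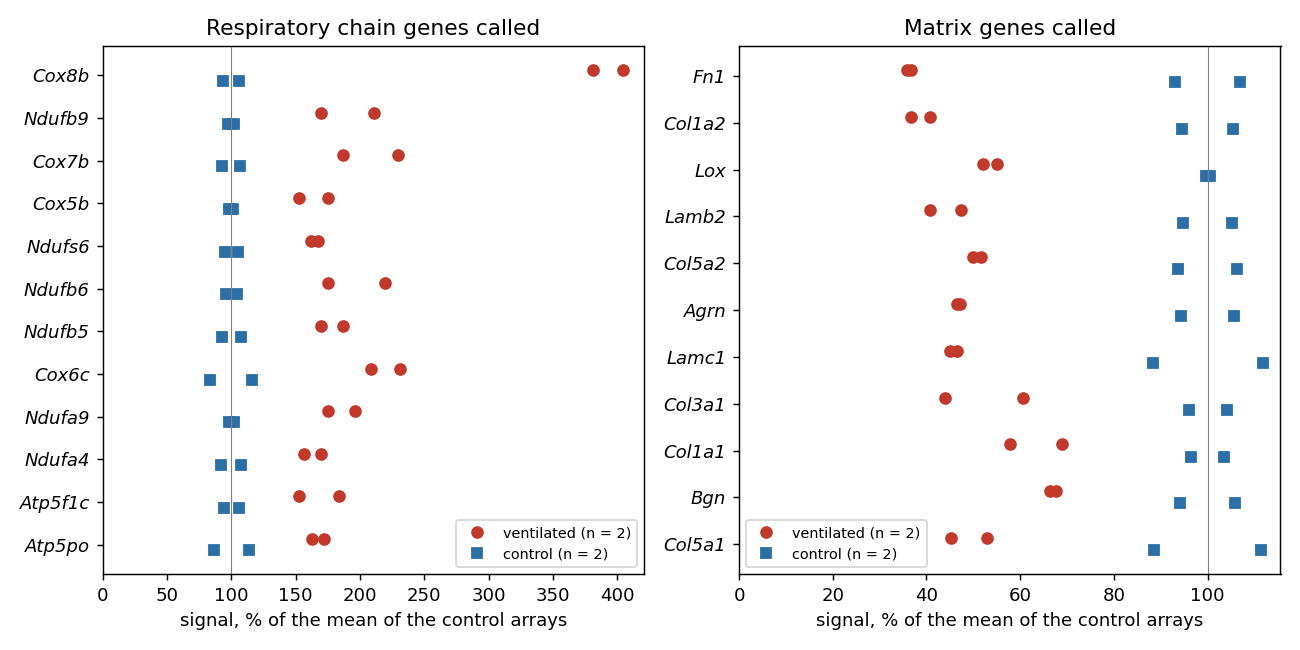
Signals of the called respiratory chain genes (left) and matrix genes (right) on the 4 arrays, as a percentage of the mean of the 2 control arrays of that gene, red circles for ventilated and blue squares for control lungs. All 12 respiratory chain genes lie above their control mean on both ventilated arrays, and all 11 matrix genes lie below it.

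Enzymes of fatty acid oxidation followed. Of 23 tested, 4 rose and none fell, with a median of 0.39: Fabp3, the heart fatty acid binding protein, at 2.06 ± 0.21, the dehydrogenase gene Acadl at 1.11 ± 0.18, the reductase gene Decr1 at 1.21 ± 0.21 and Etfdh, which passes electrons on to the respiratory chain, at 1.07 ± 0.20 (SE). Acadl had signals of 433 and 380.5 in ventilated lungs, against 166 and 213 in control lungs, with no overlap of the groups. With its probe sets averaged, dim ones included, Acadl was at 0.56 and not called (adjusted p = 0.138). Cpt1a, the liver form of the enzyme that admits fatty acids to the mitochondrion, was lower on both ventilated arrays without passing, at 168 and 195, against 279 and 302. Fuel genes of glycolysis and lactate handling held 3 rises. Pdk1, a kinase that shuts pyruvate dehydrogenase, had 62.7 and 63.6 in ventilated lungs, against 21.2 and 15.8 in control lungs, a rise of 1.79 ± 0.27 (SE). The lactate transporter gene Slc16a1 and the lactate dehydrogenase gene Ldhb rose by 1.32 ± 0.23 and 1.31 ± 0.25 (SE). Vegfa, the fourth call in that list of 28, fell. The glycolytic genes Eno1, Pgk1 and Pgam1 did not pass on their brightest probe sets (adjusted p = 0.0946, 0.137 and 0.191), but Pgk1 and Pgam1 each had 1 further probe set called higher, at 0.70 and 0.69 on the log2 scale.

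Markers of fat and heart moved on the same arrays, and some of them are respiratory chain genes such as Cox8b. Without the 2 respiratory chain genes that the lists of fat, cardiac and skeletal muscle also hold, 11 of 42 rose, none fell and the median was 0.43. That count removes shared list members only, and the tissue from which the signal of the other 42 came was not tested. Cardiac genes held 4 rises and 1 fall among 23 tested (21.7% called, against 5.78% of all genes), with a median of 0.29. The rises were Nppa, Myl4, Cox8b and Fabp3, of which Cox8b and Fabp3 were already counted in other lists above. Nppa, the atrial natriuretic peptide gene, had signals of 88.8 and 118 in ventilated lungs, against 26.5 and 35.96 in control lungs. Myl4, the atrial myosin light chain gene, had 482 and 455, against 246 and 221. These rose by 1.73 ± 0.27 and 1.01 ± 0.14 (SE). Atp2a2, the calcium pump of the sarcoplasmic reticulum and the list's fall, had 320.1 and 314 in ventilated lungs, against 555 and 666 in control lungs, a log2 change of -0.94 ± 0.14 (SE). Its call was lost with the probe sets averaged (adjusted p = 0.103). Of the 23 cardiac genes, 11 had an unadjusted p under 0.05. Myl2, the ventricular myosin light chain gene, was not called at 0.60 on its brightest probe set, but its 3 probe sets ran up to 2.87 with 2 called higher. Actc1 and Myh6, chosen after their values were seen, did not pass: Actc1, cardiac actin, had 743 and 833, against 808 and 741, and Myh6, the atrial myosin heavy chain, 39.2 and 36.5, against 37.95 and 38.1. The summed signals of the cardiac list were 5230.1 and 5104 in ventilated lungs, against 4252 and 4351 in control lungs. Skeletal muscle genes held no call among 19 in limma and 6 at an unadjusted p under 0.05, with a median of 0.47. The part of neighbouring fat and muscle in these rises was not tested.

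Proliferation and protein breakdown genes leaned the same way with few calls. Of 33 cell cycle genes, 26 were positive, with a median of 0.38. The 2 called, both higher, were 6.06% of the list, near the 5.78% called over all genes. H2az1, a histone variant gene, had signals of 872 and 1032 in ventilated lungs, against 420.4 and 484 in control lungs, and Pcna, the replication clamp gene, 808 and 733, against 503 and 477. They rose by 1.07 ± 0.14 and 0.65 ± 0.12 (SE). Of 26 proteasome and ubiquitin genes, 20 were positive, with a median of 0.39. Both ventilated arrays lay above both controls for 19 of the 26, against 27.7% of all genes. None of the 26 passed in limma, while 15 had an unadjusted p under 0.05. Psmb5, a catalytic subunit, was nearest to passing (adjusted p = 0.0533). Cytosolic ribosomal protein genes moved less, with a median of 0.09 over 37 genes, no call in limma and 11 at an unadjusted p under 0.05. Among 17 genes of p53 signalling and apoptosis, Bid, a trigger of mitochondrial death signalling, was the single call, at 1.33 ± 0.27 (SE). Bid was not called on the values as deposited (adjusted p = 0.0579). Gadd45a, a growth arrest gene, was not called at 0.42 on its brightest probe set, but its 4 probe sets ran up to 1.26 with 1 called higher.

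**Figure D4:**
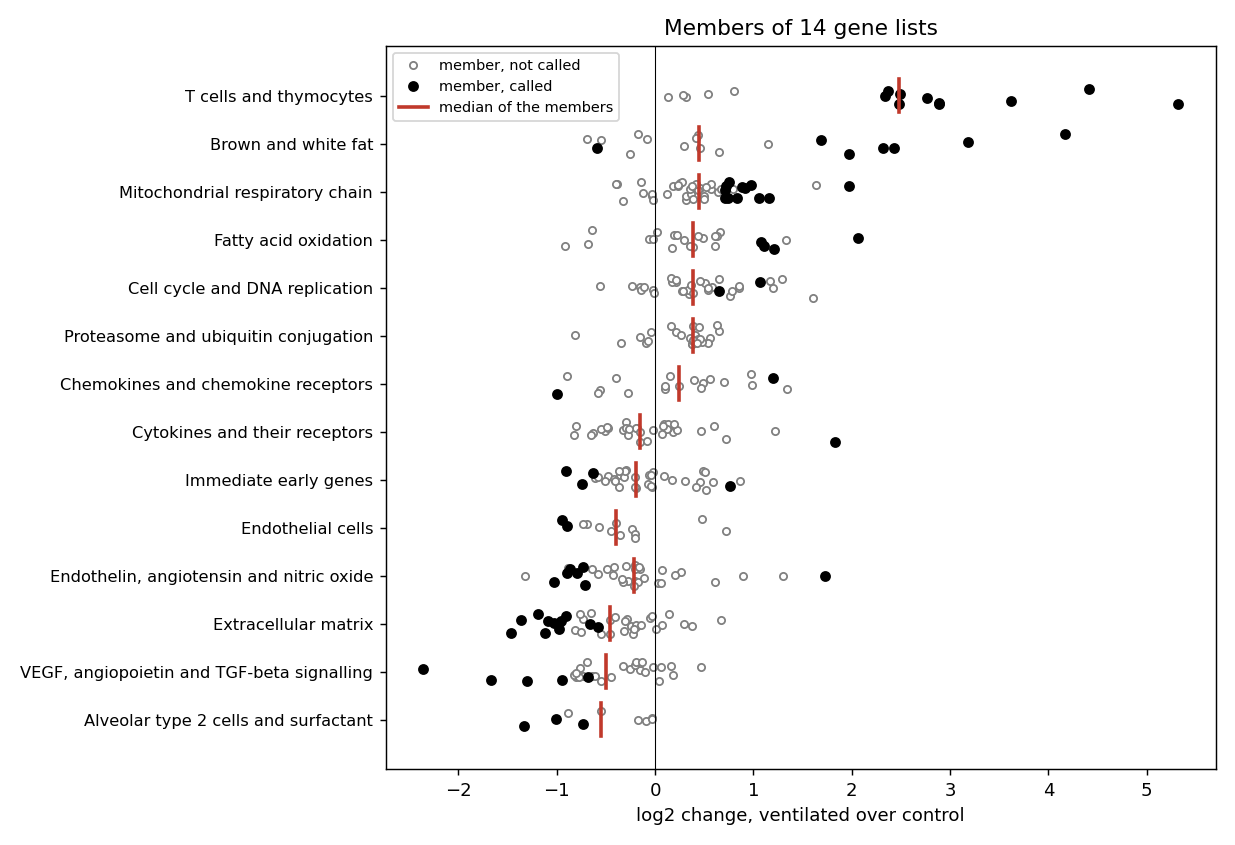
Log2 change of ventilated over control lungs for the tested members of 14 gene lists; filled points were called, open points were not, and the red bar is the list median. Medians run from 2.48 for T cell genes through 0.45 for the respiratory chain to -0.55 for alveolar type 2 genes. Some genes belong to more than 1 list.

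Some genes of the alveolar epithelium were lower. All 9 tested genes of alveolar type 2 cells were negative, with 3 called and a median of -0.55. Sftpc, the surfactant protein C gene of type 2 cells, had signals of 1643 and 1969 in ventilated lungs, against 3097 and 2884 in control lungs. Nkx2-1, the transcription factor that keeps lung epithelial identity, had 196 and 193, against 471 and 506, and the mucin gene Muc1 269 and 259.6, against 487 and 576. On each of these genes both ventilated arrays were below both controls, with log2 changes of -0.73 ± 0.12, -1.33 ± 0.14 and -1.003 ± 0.14 (SE; adjusted p = 0.026, 0.00816 and 0.0181). The other surfactant protein genes moved little: Sftpa1 by -0.10 ± 0.085, Sftpb by -0.18 ± 0.083 and Sftpd by -0.033 ± 0.25 (SE), none of them called. The median is the value of Cebpa, whose second probe set was called higher at 1.65, so its sign depends on the probe set. Nkx2-1 has a second probe set at -0.31, not called, and with both averaged it was at -0.82 and not called (adjusted p = 0.0686). With 1 array left out the list median lay between -0.58 and -0.13, and with the mean of the probe sets of each gene it was -0.20. Scnn1a, the alpha subunit of the sodium channel that clears alveolar fluid, had 358 and 338 in ventilated lungs, against 798 and 869 in control lungs, a log2 change of -1.26 ± 0.12 (SE; adjusted p = 0.00684). It was the single call among 27 ion and water transport genes. Its partner Scnn1g had a log2 change of -0.56 ± 0.20 (SE), and the water channel gene Aqp5 one of -0.083 ± 0.14. Of 13 airway genes Cyp2b2, a cytochrome P450 of club cells, was the single call (7.69%, against 5.78% of all genes). It had 1685 and 1737 in ventilated lungs, against 2876 and 3046 in control lungs, and both of its probe sets were called lower. Scgb1a1, the main secretory protein gene of club cells, had 1778 and 1723, against 2118 and 1969, and did not pass.

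Junction genes and plasma protein genes moved in a few members. Tjp1, the tight junction scaffold ZO-1, had signals of 236 and 205 in ventilated lungs, against 476 and 474 in control lungs, and Jup, plakoglobin of desmosomes and adherens junctions, 206 and 227, against 528 and 359. Both were lower on each ventilated array than on either control, with log2 changes of -1.11 ± 0.14 and -1.01 ± 0.21 (SE; adjusted p = 0.0143 and 0.0463). They were the 2 calls among 12 junction genes (16.7%, against 5.78% of all genes). Of 23 genes of hepatocyte and plasma proteins, 4 rose and 1 fell, with a median of 0.49. Ttr and Rbp4, which carry thyroid hormone and retinol in plasma, had 113 and 124 and 377 and 368 in ventilated lungs, against 35.3 and 44.4 and 126 and 127 in control lungs. The apolipoprotein genes Apoc1 and Apoa2 rose by 1.40 ± 0.19 and 1.71 ± 0.34 (SE). C3, the central complement component, was the gene that fell, with 146 and 173 in ventilated lungs, against 309 and 442 in control lungs. Alb, the albumin gene, had 70.6 and 61.4, against 34.7 and 29.7, and did not pass (adjusted p = 0.0607), but its 3 probe sets ran from -0.56 to 1.78 with 1 called higher. With probe sets averaged Rbp4 was at 0.88 and not called (adjusted p = 0.0528). The calls of Apoa2 and Jup were lost on the values as deposited (adjusted p = 0.0575 and 0.0551).

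Some endothelial genes and enzymes of vessel tone were lower too. Of 13 endothelial genes, Acvrl1, a receptor for BMP9, and Ace, the angiotensin-converting enzyme, fell, none rose, and the median was -0.40. Acvrl1 had signals of 399.8 and 305 in ventilated lungs, against 622 and 732 in control lungs, and Ace had 527 and 384, against 892 and 780.5. On the values as deposited Ace and Acvrl1 missed the test (adjusted p = 0.0583 and 0.0512). Pecam1, the CD31 gene, was lower on both ventilated arrays without passing, at -0.69 ± 0.18 (SE). Ece1, which cuts big endothelin to its active form, had 482 and 582 in ventilated lungs, against 1014 and 1155 in control lungs, whereas Edn1, the endothelin-1 gene itself, had 136 and 152, against 169 and 163. Ece1 fell by 1.03 on the log2 scale (adjusted p = 0.016), and Edn1 did not pass (-0.21 ± 0.16).

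Several receptors that make cyclic GMP were lower. Gucy1a1 and Gucy1b1 encode the subunits of soluble guanylate cyclase, the receptor of nitric oxide, and Npr1 encodes the receptor of atrial natriuretic peptide. Gucy1a1 had signals of 282 and 243 in ventilated lungs, against 442 and 518 in control lungs, and Gucy1b1 248 and 237, against 416 and 390.1. Npr1 had 167 and 153, against 275 and 279.9. For all 3 genes both ventilated arrays lay below both controls, with log2 changes of -0.87 ± 0.16, -0.73 ± 0.14 and -0.80 ± 0.15 (SE; adjusted p = 0.0345, 0.0366 and 0.0374). The phosphodiesterase gene Pde4b fell with a log2 change of -0.71 and Pde2a, which is stimulated by cyclic GMP, with -1.69, the last from low signals of 16.8 and 12.03 in ventilated lungs, against 43.3 and 48.4 in control lungs. With a common median Gucy1b1, Npr1 and Pde4b were not called (adjusted p = 0.0506, 0.0506 and 0.0557), nor was Pde2a with a floor at the 40th percentile (adjusted p = 0.0726). Nos3, the nitric oxide synthase of endothelium, had 68.5 and 100.1, against 106 and 85.03, and the groups overlapped. Npr2 and Gucy2d, cyclase receptor genes chosen after their values were seen, had log2 changes of -0.58 ± 0.40 and 0.90 ± 0.61 (SE) and did not pass. The cyclase genes Gucy1b2, Gucy2c, Gucy2e and Gucy2g were also tested, and their values are not given here. The wider list of endothelin, angiotensin and nitric oxide genes does not hold Pde2a. Of its 35 tested genes, 6 fell and 1, Nppa, rose, with a median of -0.21.

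Growth factor signalling through VEGF, TGF-beta and Notch had a negative log2 change in 25 of 30 tested genes, with 5 called lower, none higher and a median of -0.50. Vegfa had signals of 225 and 230.2 in ventilated lungs, against 371 and 359 in control lungs. Its 4 probe sets were all negative, from -0.68 to -0.37, with 1 called. Notch1 had 114 and 109.9, against 276 and 276, and 2 probe sets that were both called. Ltbp2, a binding protein of the elastic fibre, was close to the floor in ventilated lungs at 14.3 and 12.5, against 58.1 and 80.2 in control lungs. Smad7, the inhibitor of TGF-beta receptors, had 12.5 and 21.2, against 47.6 and 56.5. The log2 changes of Vegfa, Notch1, Ltbp2 and Smad7 were -0.68 ± 0.13, -1.30 ± 0.15, -2.35 ± 0.29 and -1.67 ± 0.34 (SE). With probe sets averaged, dim ones included, Ltbp2 was at -1.18 and not called (adjusted p = 0.054). Vegfa was not called with a common median (adjusted p = 0.0596), nor Smad7 on the values as deposited (adjusted p = 0.0524). Tgfb1 itself had 101 and 90.2 in ventilated lungs, against 105 and 106 in control lungs, a difference that did not pass.

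Matrix genes held the most falls of any list by count, though not by share. Of 37 tested, 11 fell (29.7%, against 3.30% of all genes) and none rose, and 31 were negative, with a median of -0.46. Relative to the control mean that median was -0.40 and -0.52 on the ventilated arrays. Fn1, the fibronectin gene, had signals of 507 and 522 in ventilated lungs, against 1319.6 and 1518 in control lungs. Col1a2 and Col3a1, fibrillar collagen genes, had 533 and 593 and 1213 and 878 in ventilated lungs, against 1374 and 1532 and 2084 and 1920.2 in control lungs. All these ventilated values were below the lower control. Of the 4 tested probe sets of Fn1, 3 were called lower, down to -1.72 on the log2 scale, and the remaining one was at 0.21 and not called. With all of them averaged Fn1 was at -0.88 and not called (adjusted p = 0.0585). Lox, which crosslinks collagen and elastin, fell with a log2 change of -0.90, Col5a2 with -0.98, the laminin genes Lamb2 and Lamc1 of the basement membrane with -1.19 and -1.12, and the proteoglycan gene Agrn with -1.09. Outside the rule for naming genes, and given to complete the count, Col1a1 fell with a log2 change of -0.66, with all 4 of its probe sets called lower, and Col5a1 and Bgn fell with a log2 change of -1.02 and -0.58. Eln, the elastin gene, had 825 and 726 in ventilated lungs, against 1081 and 1182 in control lungs, lower without passing (adjusted p = 0.0568). Serpinh1, a collagen chaperone gene, and Sparc did not pass, at -0.22 ± 0.11 and -0.19 ± 0.12 (SE), but the 4 probe sets of Sparc ran from -0.64 to 0.29 with 1 called lower.

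The contractile and mesenchymal genes Myh11, Cspg4 and Pdgfra fell, with log2 changes of -1.53, -1.36 and -1.06 on the brightest probe sets. The other probe set of Myh11 gave 0.11 and that of Pdgfra -0.21, neither called. With probe sets averaged Myh11 was at -0.47 and Pdgfra at -0.35, and both calls were lost (adjusted p = 0.261 and 0.368). Myh11, smooth muscle myosin, had signals of 108 and 96.03 in ventilated lungs, against 292 and 298 in control lungs. Acta2 and Tagln, further smooth muscle genes, did not follow it: Acta2 had 1118 and 1224, against 1107 and 1135, and Tagln 1151 and 1202, against 1035 and 1169. Their log2 changes were 0.062 ± 0.11 and 0.10 ± 0.11 (SE). The 3 probe sets of Acta2 ran from -0.37 to 0.062, none called. Of 18 tested genes of smooth muscle, pericytes and fibroblasts, 12 were negative, 3 fell and 1, Thy1, rose, with a median of -0.28.

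Several of the 15 largest falls lay outside these groups. Sptan1, the alpha chain of non-erythroid spectrin, had signals of 77.9 and 87.2 in ventilated lungs, against 288 and 291 in control lungs, and Dync1h1, the heavy chain of cytoplasmic dynein, 84.7 and 80.6, against 304 and 262. Both were well below the controls on each ventilated array, with log2 changes of -1.81 ± 0.16 and -1.77 ± 0.17 (SE; adjusted p = 0.00488 and 0.00634). Wdfy3, an adaptor of selective autophagy, fell with a log2 change of -2.06, the exchange factor gene Dock9 with -1.66, the guidance cue gene Slit3 with -2.36, the splicing factor gene Sf3b1 with -1.83, Aebp1, a matrix-associated carboxypeptidase-like gene, with -1.73, and the GTPase regulators Arhgap39 and Madd with -2.17 and -1.73. With a floor at the 40th percentile Arhgap39, Madd and Sf3b1 were not called (adjusted p = 0.0526, 0.0654 and 0.0682). Pcnx3 and Lrrc8a, of which Lrrc8a encodes a subunit of the volume-regulated anion channel, were under the floor on both ventilated arrays, so they were at least 5.03-fold and 4.24-fold lower in ventilated lungs.

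The genes that fell had longer genomic spans than those that rose, a property the comparison did not use. Spans were read from mouse genes that bear the same symbol, available for 94% of the genes tested. A span includes introns, so it is not the length of the transcript. The median span was 8.70 kb for the genes that rose, 46.9 kb for those that fell and 22.5 kb over all genes tested. Among the 729 genes with the shortest spans, up to 7.10 kb, 4.94% rose and 2.06% fell. Among the 729 with the longest, over 67.2 kb, 0.412% rose and 6.45% fell. The respiratory chain list had a median span of 7.38 kb, and the matrix and the VEGF, TGF-beta and Notch lists of 33.8 and 48.8 kb. The alveolar type 2 list, with a median log2 change of -0.55 over 9 genes, had a median span of 4.73 kb. Control probe sets for RNA quality were not analysed here, and the part of RNA quality in the rises of short and the falls of long genes was not tested.

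**Figure D5:**
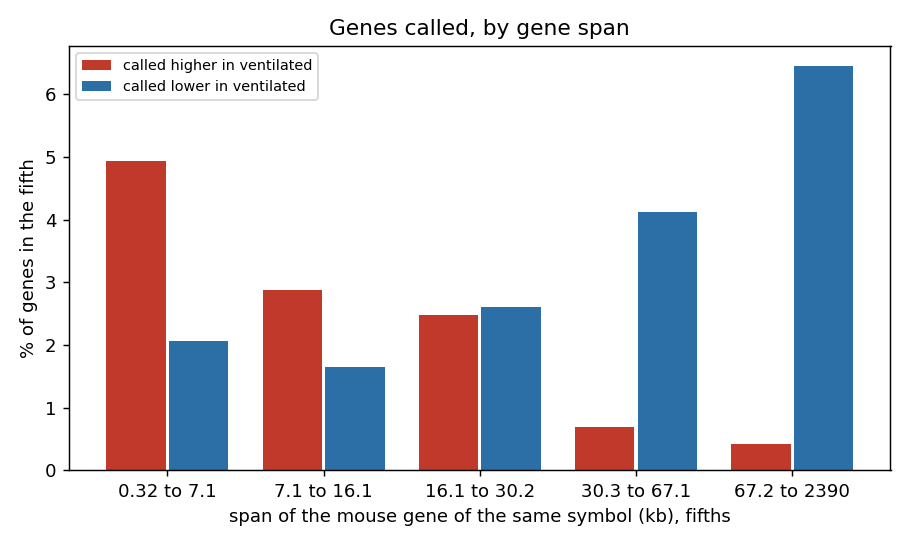
Percentage of genes called higher (red bars) and lower (blue bars) in ventilated lungs, in 5 classes of 729 genes by the span in kb of the mouse gene that bears their symbol. The share called lower is 2.06% in the shortest and 6.45% in the longest class, and the share called higher 4.94% and 0.412%.

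Genes measured by more than 1 probe set gave a check within the arrays. Of the 224 called genes, 95 had several tested probe sets, and for 86 of these all probe sets had the same direction. Another probe set of the gene was called in the same direction for 40, and in the opposite direction for 0. When all probe sets were fitted singly, 45 of the genes not called in the main fit had a called probe set. These were 23 higher, 21 lower and 1 both. For Kcnk1 and Nrp1 it was the only probe set tested, so those calls come from the other fit and not from another probe set. With the probe sets of each gene averaged over the whole table, calls of further genes named above were lost with adjusted p between 0.0528 (Sod2 and Acvrl1) and 0.121 (Vegfa): Ace, Bid, Jup, Psmb8, Psmb9, Smad7, Ndufb5, Crem, Zfp36, Ldhb, Npr1, Pde4b and Lox. The log2 changes of Sod2, Acvrl1, Ace, Bid, Jup, Psmb8 and Smad7 were the same as in the main fit. Their losses come from the changed fit over all genes and not from disagreeing probe sets. Probe sets of 1 gene share the RNA of the same 4 lungs, so they bear on the probes and not on the spread between animals.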

How the data were processed

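Total RNA of rat lung was copied to biotinylated cRNA with an oligo-dT primer and hybridised to an Affymetrix rat array, per the labels' protocols. The authors deposited 1 signal intensity per probe set and array on a linear scale; the mean after trimming 2% at each end was 149 to 150 on every array. Neither the software nor the scaling target nor any detection calls are given in the sources used. Of 8740 probe sets, 7006 had 1 gene symbol in the supplied array annotation, 308 carried several and 1426 carried none, for 4736 genes in total.

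Quantile normalisation was applied across the 4 arrays, a floor was set at the 25th percentile (11.5), and signals were put on a log2 scale. The brightest probe set stood for its gene, and 3876 genes with a mean above that percentile were tested with limma 3.58.1 in R 4.3.3 (eBayes with a variance trend, two-sided), adjusted over all genes by the Benjamini-Hochberg method at 0.05. A gene with both arrays of a group under the floor has a lower bound for its fold. Without a block, the fit used the 2 ventilated and 2 control arrays. The pipeline was tested on simulated data. Alternatives of normalisation, floor, filter, probe sets, variance prior, replicate block and left-out arrays were run. Counts of arrays standing apart and list medians under these alternatives, and a crossed replicate block, were added after the data were seen.

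The members of the 53 gene lists and the rules were chosen with earlier results of these data known. The rule named the 15 largest changes in each direction among called genes whose arrays do not overlap, up to 8 genes per list with the smallest p, the genes often followed in ventilation, and members behind counts of 5 or fewer. Acta2, Actc1, B2m, Bgn, Cd4, Cd5, Col1a1, Col5a1, Cxcl3, Eln, Gucy2d, Klrb1a, Lep, Myh6, Ndufa4, Ndufa9, Npr2, Pgam1, Ptprc, Rag1, Serpinh1, Socs3, Sparc, Tagln and Tgfb1, with Atp5f1c and Atp5po, were named after their values were seen. List genes without a single-symbol probe set were not analysed here. Gene spans came from the mouse assembly GRCm38.p6. Promoter sequences were not used here, since those supplied are of the mouse.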

Additional observations from a re-analysis of the deposited data

Results flagged for a closer look

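Probe sets without a gene name are outside the comparison of genes. Fitted with all 6624 probe sets, 931 of them were unnamed, of which 26 were called higher and 29 lower in ventilated lungs (limma, adjusted p under 0.05; 5.91% of the unnamed, against 5.96% of all probe sets). The probe set with the largest rise, K01934mRNA#2_at, had normalised signals of 713 and 665 in ventilated lungs, against 49.3 and 63.5 in control lungs. M18854_at had 2597 and 2952 in ventilated lungs, against 232 and 218 in control lungs. The largest fall was in rc_AI014135_g_at, at 45.0 and 29.1 in ventilated lungs, against 349 and 151 in control lungs.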

How the results depend on the processing

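Leaving out any 1 array moved the 224 calls most. With no filter on dim genes 39 genes were called (23 higher, 16 lower), and with no variance trend 61 (40 higher, 21 lower). With all probe sets taken singly 395 were called (182 higher, 213 lower), with each gene's probe sets averaged 158 (80 higher, 78 lower), and with a common median 155 were higher and 102 lower. The other normalisations, floors and filters and the robust prior gave between 202 and 265 calls. Of the 224, 165 (75 higher, 90 lower) were called in all 7 settings of normalisation, floor, stricter filter and robust prior. With each array left out in turn the count lay between 0 and 0 in limma, also for higher and for lower genes, with a smallest adjusted p of 0.0548 to 0.297. The lone array of a group was then assumed to vary like the other group. With the replicate number as a replicate block 146 genes were called (69 higher, 77 lower). The numbers come with no stated pairing, and the correlation of same-numbered arrays' deviations was -0.106. With the numbers crossed as a replicate block, added after the data were seen, 232 genes were called (106 higher, 126 lower). Among the 113 called genes that the rule names, Cox6c reversed, at -0.00072 with the mean of its probe sets, and 31 lost their call in that setting. All 113 lost it with any array left out, 95 with no filter on dim genes, 69 with no variance trend, 27 with the replicate block, 11 with a common median and 10 with the values as deposited. Hybridisation or scan batch as a block was not run, since dates were not used here. With 2 arrays a group, array number limits every value.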

Other observations

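Further gene groups held 1 or 2 calls each, shares mostly near the 5.78% called over all genes, so these counts say nothing particular about the groups. Pla2g2a, a secreted phospholipase that frees fatty acids for eicosanoid synthesis, had signals of 471 and 434 in ventilated lungs, against 239.6 and 270.4 in control lungs, and rose by 0.83 ± 0.14 on the log2 scale (SE; limma, adjusted p = 0.0308); it was the single call among 20 genes of prostaglandin and leukotriene synthesis. F2r, the thrombin receptor, had 750.1 and 741 in ventilated lungs, against 1268 and 1248 in control lungs, and was the single call among 18 genes of coagulation and fibrinolysis, at -0.75 ± 0.10. Of 26 growth factor and receptor genes, Fgfr1 and Igf2r fell, with log2 changes of -0.78 and -1.21 and a list median of -0.23. With probe sets averaged Fgfr1 was at -0.51 and not called (adjusted p = 0.18). Per2, a repressor of the circadian clock, fell by 1.12, the single call among 9 clock genes. Mmp2, the gelatinase of connective tissue, fell by 0.81, the single call among 26 matrix proteases and inhibitors, and with its probe sets averaged it was at -0.50 and not called (adjusted p = 0.14). Of 18 genes that respond to glucocorticoids, Scnn1a fell, 15 were negative, and the median was -0.30. The B cell receptor gene Cd79b fell by 0.99, and all 5 tested B and plasma cell genes were negative.

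Some called genes outside the lists were chosen after their values were seen. Reg3g and Reg3b, secreted lectins that act on bacteria, had signals of 174 and 179 and 119 and 123 in ventilated lungs, against 65.1 and 65.03 and 55.5 and 60.7 in control lungs. Slco2a1, the prostaglandin transporter through which lung clears prostaglandin E2, had 537 and 652, against 1715 and 1339.8, and both of its probe sets were called lower. Txnip, an inhibitor of thioredoxin that responds to glucose, had 1032 and 1054, against 1824 and 2017, a log2 change of -0.88 ± 0.10 (SE; adjusted p = 0.012).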
